A study of Drosophila melanogaster with 3 samples.

Results

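The muscle structure and contraction genes are 34 named genes of Drosophila melanogaster, 34 of 13945 protein-coding genes and of 17683 annotated genes in all. They encode the proteins of the sarcomere, its calcium stores and nuclear anchors, and Mef2, the main transcription factor of muscle differentiation. They were taken by name, each as its gene body plus 1000 bp upstream, and all 34 were found in the annotation. Unc-89 is listed there as Obsc. The values are sites of the nuclear receptor Ultraspiracle (USP), mapped by ChIP-seq (sequencing of immunoprecipitated chromatin) in whole larvae of the third instar that had begun to wander, males and females pooled. The larvae came from a transgenic line with stable expression of usp fused to eGFP at the C-terminal end. Per the sample descriptions the immunoprecipitation used an antibody against GFP, while another label names usp as the antibody. There was 1 group of 3 biological replicates, with no untagged line, other stage or hormone treatment among the samples, so nothing was compared between conditions and no p-value is given. The labels do not say which promoter drives the tagged usp, or whether it replaces or adds to the normal gene.

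USP is the fly counterpart of the vertebrate retinoid X receptors, and with EcR it forms the receptor for ecdysone, the steroid hormone that times larval moults and metamorphosis. In the wandering stage the larva leaves its food before pupariation, and most larval muscles are later broken down while the adult muscles are built from other precursors. The sarcomere slides thin filaments of actin, tropomyosin and troponin along thick filaments of myosin. The Z-disc anchors the thin filaments, and giant elastic proteins link Z-discs to thick filaments. Whole larvae hold all tissues together, so a site present in a few cells and a weaker site present in many cannot be told apart, and no site is assigned to muscle cells here. The lists hold sites of binding and no measure of expression, so the label of the gene set could not be checked against RNA.

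Peak lists of 3 kinds were used: the 11195 peaks that passed the authors' threshold on the irreproducible discovery rate (IDR), the pooled list of 30000 peaks, and 1 list of 30000 peaks for each replicate. The IDR-thresholded peaks were exactly the 11195 strongest of the pooled list by signal, the peak caller's own score. Per the file headers, both lists were derived from replicates 2 and 3. The highest signal was 47800.6 in the pooled list and 14221.9, 13892.6 and 19788.8 in replicates 1, 2 and 3. Whether replicate 1 also entered the pooled list was not tested, so no replicate is taken as independent of it. Rank 1 is the peak of highest signal in a list, and each replicate's strongest peaks are its own first 11195. The files do not show how deeply each library was sequenced. A gene was called bound when the summit of an IDR-thresholded peak lay in its body or within 1000 bp upstream.

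USP summits were fewer in the muscle genes than in genes of their length. Summits of the IDR-thresholded list lay in 8 of the 34 muscle genes, 23.5%, against 49.8% of the 200 protein-coding genes nearest in length to each member and 35.8% of all protein-coding genes. The share for genes of nearest length corresponds to 16.9 of 34. The order against all protein-coding genes turned in 4 other settings: it was 23.5% against 23.2% with no upstream window, 23.5% against 21.9% with the 5597 strongest peaks, 23.5% against 17.9% with summits in no other gene's window, and 32.4% against 30.2% with each summit given to the nearest TSS alone. The 8 bound members were Tm1, Mef2, TpnC73F, Zasp52, Actn, Msp300, SERCA and Strn-Mlck. All 8 held at least 1 summit within 500 bp of a transcription start site (TSS) of their own, 23.5% of the members, against 37.1% of genes of nearest length and 28.0% of all protein-coding genes. The median number of summits per gene was 0 in the muscle genes, in genes of nearest length and in all protein-coding genes alike.

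The same 8 genes were bound in every replicate. Replicates 1, 2 and 3 gave 9, 8 and 9 bound members (8.67 ± 0.577, SD, n = 3), against 35.9%, 33.8% and 36.9% of all protein-coding genes in the same replicates. The ninth gene in replicates 1 and 3 was Zasp66, which codes for a PDZ-domain protein of the Z-disc.

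Below the IDR threshold, 7 further members held summits of the pooled list only, 20.6% of the members, against 11.4% of genes of nearest length and 13.4% of all protein-coding genes. Only genes that are not bound can fall in this class. Such genes were more common among the members than in either comparison, so the higher share is not a result. The 7 members were wupA, Mlp60A, Mlp84B, sls, Prm, Zasp66 and tn. With these, 15 members (44.1%) held a summit anywhere in the pooled list, against 61.3% of genes of nearest length (20.8 of 34) and 49.2% of all protein-coding genes. The remaining 19 members (55.9%) held no summit in the pooled list or in the full list of any replicate, against 33.5% of genes of nearest length and 45.8% of all protein-coding genes. They were Mhc, Mlc1, Mlc2, fln, Mf, Act57B, Act79B, Act87E, Act88F, up, Tm2, TpnC47D, TpnC41C, TpnC25D, TpnC4, Zasp67, bt, Unc-89 and RyR.

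**Figure D1:**
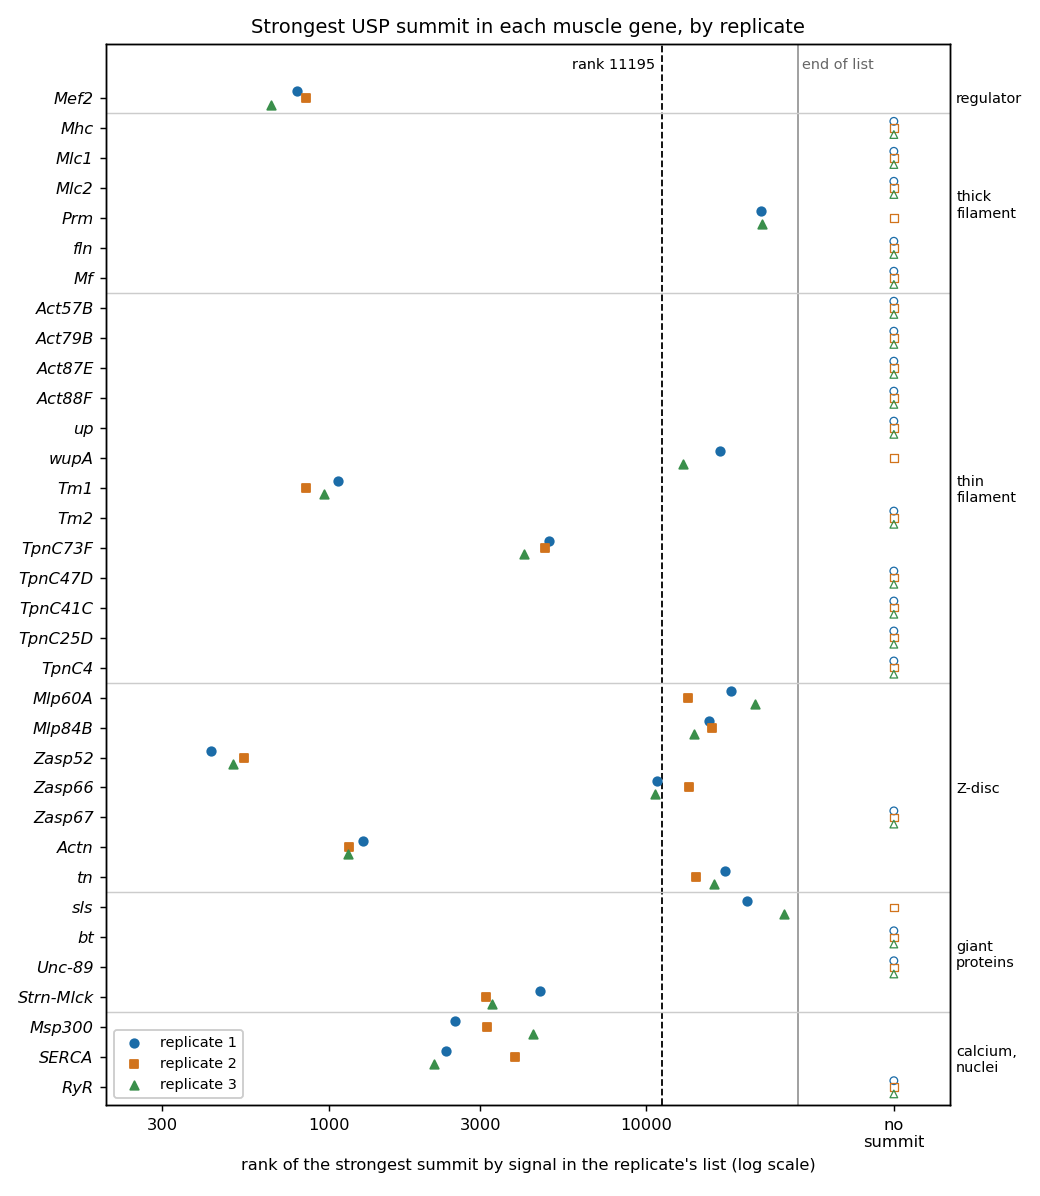
Rank of the strongest USP summit in each of the 34 muscle genes, on a log axis, in each replicate's own list (circle, replicate 1; square, replicate 2; triangle, replicate 3). The dashed line marks rank 11195, open symbols at the right mark replicates with no summit among 30000, and the 8 bound genes lie left of the line in all 3 replicates.

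The muscle genes differ widely in length, and length went with binding. The bound members were 2.33 to 106 kb long (median 36.6 kb), the 7 bound below the threshold 3.62 to 75.9 kb (median 12.5 kb), and the 19 without a summit 1.44 to 52.1 kb (median 4.43 kb). The median was 10.3 kb over all members and 2.17 kb over all protein-coding genes. Summit density was also lower in the muscle genes, with 0.741 summits per 10 kb of gene window in the muscle genes, 1.02 in genes of nearest length and 1.12 in all protein-coding genes. Members longer than their median were among those without a summit: of the 200 genes nearest in length, 63.0% were bound for Mhc, 62.5% for bt, 62.0% for RyR, 57.5% for Unc-89 and 51.5% for Mf. At the other extreme TpnC73F, only 2.33 kb long, held 3 summits, and 6 of its 200 neighbours in length held as many.

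**Figure D2:**
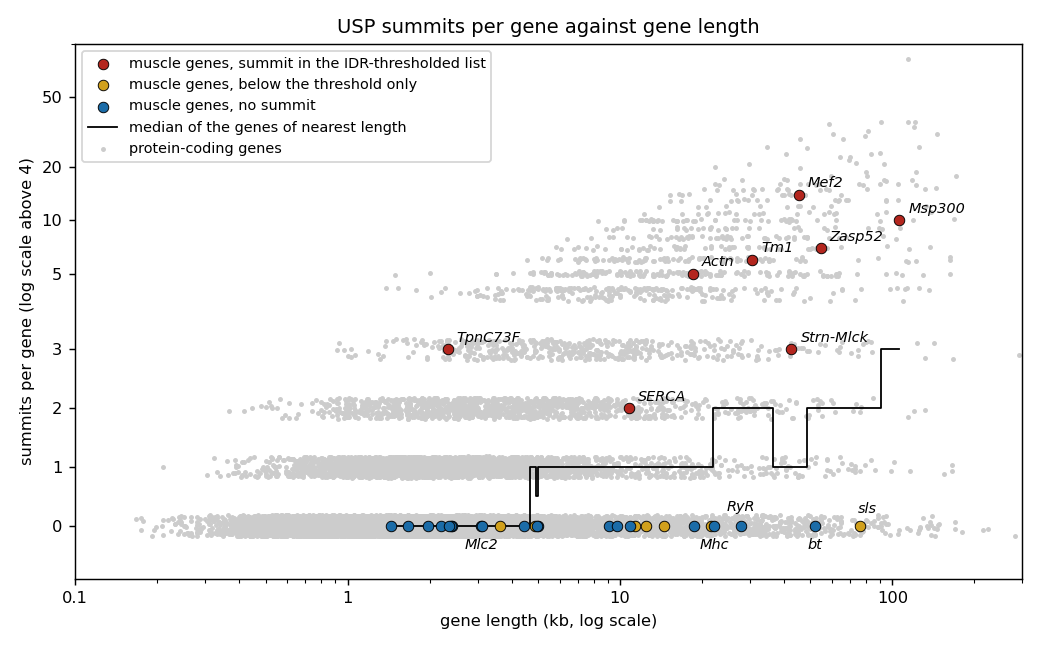
Number of IDR-thresholded USP summits per gene (vertical axis, linear to 4 and logarithmic above) against gene length in kb (log axis), for the 34 muscle genes (red, bound; yellow, below the threshold only; blue, no summit) over all protein-coding genes in grey. The line joins the median of the 200 genes of nearest length to each muscle gene. The bound genes lie above it and the long unbound genes Mhc, bt, RyR and sls lie under it at 0.

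Mef2, the MADS-box factor that activates many sarcomere genes, had the most summits of any member. The gene (2R:9913496-9958858, minus strand) held 14 IDR-thresholded summits and a further 15 below the threshold. Its number of summits in the replicates' strongest peaks was 12, 13 and 12 (12.3 ± 0.577, SD, n = 3), and 18 of its 200 neighbours in length held 14 or more. The strongest lay at 2R:9949752 in an intron, 4988 bp from the nearest Mef2 TSS, with a signal of 3418.2 and rank 721. Its ranks in replicates 1, 2 and 3 were 797, 848 and 659, so the replicates placed it close together.

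The other Mef2 summits fell into separate groups along the gene. A group within the introns and 5′ UTR near the TSS of 8 transcripts was led by the summit at 2R:9925763 with rank 1198, which ranked 1019, 1867 and 1085 in the replicates. A promoter summit at 2R:9929830 lay 215 bp from the same TSS, with rank 2856. Another pair of promoter summits, led by 2R:9958516 with rank 2097, lay by the most distal TSS, that of Mef2-RF and Mef2-RH. The summit at 2R:9915327, rank 1795, lay in the 3′ UTR and ranked 1610, 2069 and 1897 in the replicates. It was 14288 bp from a Mef2 TSS and 4434 bp from that of Etf-QO, so the nearest gene start was that of another gene. Summits about 200 bp apart within 1 interval occurred 5 times in Mef2, and each summit was counted on its own.

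The thick filament had no bound gene. Of its 6 genes, 5 held no summit in any list and 1 held summits below the threshold only, against 2.77 of 6 bound among genes of nearest length. Mhc, the only muscle myosin heavy chain gene of the fly (2L:16766566-16788766, plus strand), is 22.2 kb long, and the nearest IDR-thresholded summit lay 28167 bp outside its window. For Mlc1, the essential light chain, that gap was 18101 bp, and for fln, the flight-muscle protein flightin, it was 59387 bp. It was 13965 bp for Mf, myofilin. Mlc2, the regulatory light chain, had a summit only 289 bp beyond its window. Prm codes for paramyosin, the core protein of invertebrate thick filaments. Its best pooled summit, 130 bp from the TSS, ranked 21682 and had a counterpart within 100 bp in replicate 3 only.

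The thin filament had 2 bound genes of 13, Tm1 and TpnC73F, against 5.50 of 13 among genes of nearest length. Tm1 is one of a pair of adjacent tropomyosin genes and makes both muscle and cytoskeletal forms from several promoters. It (3R:15278220-15308779, plus strand) held 6 IDR-thresholded summits, with 7, 7 and 8 among the replicates' strongest (7.33 ± 0.577, SD, n = 3). The strongest lay at 3R:15283535 in an intron, 1985 bp from the nearest Tm1 TSS, with signal 2842.6 and rank 951. In replicates 1, 2 and 3 it ranked 1067, 852 and 968. A summit at 3R:15290929 lay 15 bp from the TSS of Tm1-RA, with rank 3414, and another at 3R:15291828 lay in the intron behind it, with rank 3099. The weakest, at 3R:15278067, was 42 bp from the TSS of MRG15 and 153 bp from that of Tm1-RT, so it belongs to a shared region. Tm2, which lies directly downstream and codes for the second muscle tropomyosin, held no summit, and the nearest one was 11013 bp from its window.

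Among the troponin C genes, which code for the calcium sensor of the thin filament, 1 of 5 was bound, against 1.86 of 5 among genes of nearest length. TpnC73F (3L:17046063-17048390, plus strand), a form of larval muscle, held 3 summits, 2 of them within 200 bp of each other at its 3′ end. The strongest, at 3L:17047933 in an intron, had rank 4358 and ranked 4949, 4783 and 4130 in replicates 1, 2 and 3. It lay 1773 bp from a TSS of TpnC73F and 1579 bp from that of rogdi, and with summits given to the nearest TSS alone TpnC73F held 1 summit. A promoter summit at 3L:17045666 lay 397 bp from the TSS of TpnC73F-RC, with rank 6683 and replicate ranks of 8132, 7610 and 6046. The summit at 3L:17048133 in the 3′ UTR, rank 10974, was the only member summit with no counterpart within 100 bp among the strongest peaks of any replicate. TpnC47D and TpnC25D held none, and neither did TpnC41C and TpnC4, forms of adult muscle. For TpnC41C and TpnC4, which lie far from the nearest binding, the gaps were 631002 and 193346 bp.

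The strongest site of each bound thin-filament gene is shown. The bases below are those of the RefSeq copy of the release 6 genome, 100 bp to each side of the summit, plus strand, 5′ to 3′. Capitals mark a match to the Mef2 consensus, and the Tm1 window holds no match to it, to the hexamer AGGTCA or to the palindromic ecdysone response element.
Tm1, 3R:15283435-15283635: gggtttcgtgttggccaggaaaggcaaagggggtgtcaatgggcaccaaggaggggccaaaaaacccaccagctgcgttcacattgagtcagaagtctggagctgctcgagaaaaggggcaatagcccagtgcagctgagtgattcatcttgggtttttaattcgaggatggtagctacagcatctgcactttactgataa
TpnC73F, 3L:17047833-17048033: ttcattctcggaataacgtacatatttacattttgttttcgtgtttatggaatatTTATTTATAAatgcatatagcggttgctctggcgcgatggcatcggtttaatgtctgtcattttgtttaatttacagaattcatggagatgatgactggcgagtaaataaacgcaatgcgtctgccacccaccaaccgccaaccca

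The 4 muscle actin genes, Act57B and Act87E of larval muscle and Act79B and Act88F of adult muscle, held no summit in any list. The nearest IDR-thresholded summits lay 4576, 9285, 4243 and 6622 bp outside their windows. Troponin T, encoded by up, held none either, and its gap was 12628 bp. Troponin I, encoded by wupA, held summits below the threshold, the best of them in the promoter 124 bp from the TSS of wupA-RD and wupA-RL. That summit ranked 15147 in the pooled list, 17011 in replicate 1 and 13037 in replicate 3, and replicate 2 had none there.

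The Z-disc had 2 bound genes of 7, Zasp52 and Actn, and 4 more with summits below the threshold, against 3.87 of 7 bound among genes of nearest length. Actn codes for alpha-actinin, which crosslinks actin filaments at the Z-disc. The gene (X:2023822-2042311, minus strand) held 5 summits, and 5 in each replicate's strongest. Its strongest summit, at X:2042260 with rank 1149, and that at X:2041366 with rank 7667 lay in windows shared with usp and CG4313. The first lay 51 bp from the TSS of 4 Actn transcripts, and the second 54 bp from that of usp. Because usp is the tagged gene, reads of the normal gene and of a tagged copy cannot be told apart there. The 3 summits away from usp ranked between these. They were led by X:2033004 in an intron, with rank 4613 and replicate ranks of 4751, 4231 and 4880, and included X:2036614, 5 bp from the TSS of Actn-RH, with rank 4771. The window at X:2033004 is shown as the strongest Actn site outside the usp region, on the plus strand, 5′ to 3′ (RefSeq, release 6). It holds no match to the Mef2 consensus, the hexamer AGGTCA or the response element, and its GC content was 60.7%.
Actn, X:2032904-2033104: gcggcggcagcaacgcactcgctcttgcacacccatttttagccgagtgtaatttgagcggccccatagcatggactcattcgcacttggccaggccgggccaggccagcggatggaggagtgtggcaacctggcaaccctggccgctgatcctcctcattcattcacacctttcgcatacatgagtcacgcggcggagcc

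Zasp52, an Alp/Enigma PDZ-LIM protein that binds alpha-actinin, held the strongest USP summits of all 34 genes. The gene (2R:15762565-15817004, minus strand) had 7 IDR-thresholded summits, with 7, 6 and 8 among the replicates' strongest (7 ± 1, SD, n = 3). The strongest lay in an intron at 2R:15813524, 1393 bp from a TSS, with signal 4300.6 and rank 512. It ranked 427, 705 and 502 in replicates 1, 2 and 3. The next lay at 2R:15816970, 34 bp from the TSS of Zasp52-RC and Zasp52-RZ, with signal 3641.1, rank 659 and replicate ranks of 774, 540 and 677. Of the 7, 6 also lay in the window of tun, a gene that overlaps Zasp52, so they cannot be assigned to Zasp52 alone. Summits below the threshold filled much of the long introns, 20 in all.

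The related PDZ genes had little or nothing. Zasp66 held 8 summits below the threshold, the best of them 222 bp from a TSS at rank 12372, just under the limit of 11195. The best-ranked summit anywhere in Zasp66 ranked 10782 in replicate 1, 13649 in replicate 2 and 10653 in replicate 3. These lay at different sites. That of replicate 1 was at the pooled summit 3L:8634029, 40 bp from the TSS of Cdc6 and in the window of that gene. That of replicate 3 was at the summit of rank 12372, where replicates 1 and 2 ranked 16086 and 14376. Zasp67 held none. The muscle LIM proteins Mlp84B and Mlp60A had best pooled ranks of 14857 and 16930, and both of these summits had counterparts in the full lists of all 3 replicates. At Mlp84B the best summit lay in the 3′ UTR and inside the window of Alh, and at Mlp60A it lay 56 bp from the TSS of Mlp60A-RF. The gene tn, thin, a TRIM protein that keeps Z-discs intact, held 9 weak summits with a best rank of 15985, and that summit was found in all 3 full lists.

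**Figure D3:**
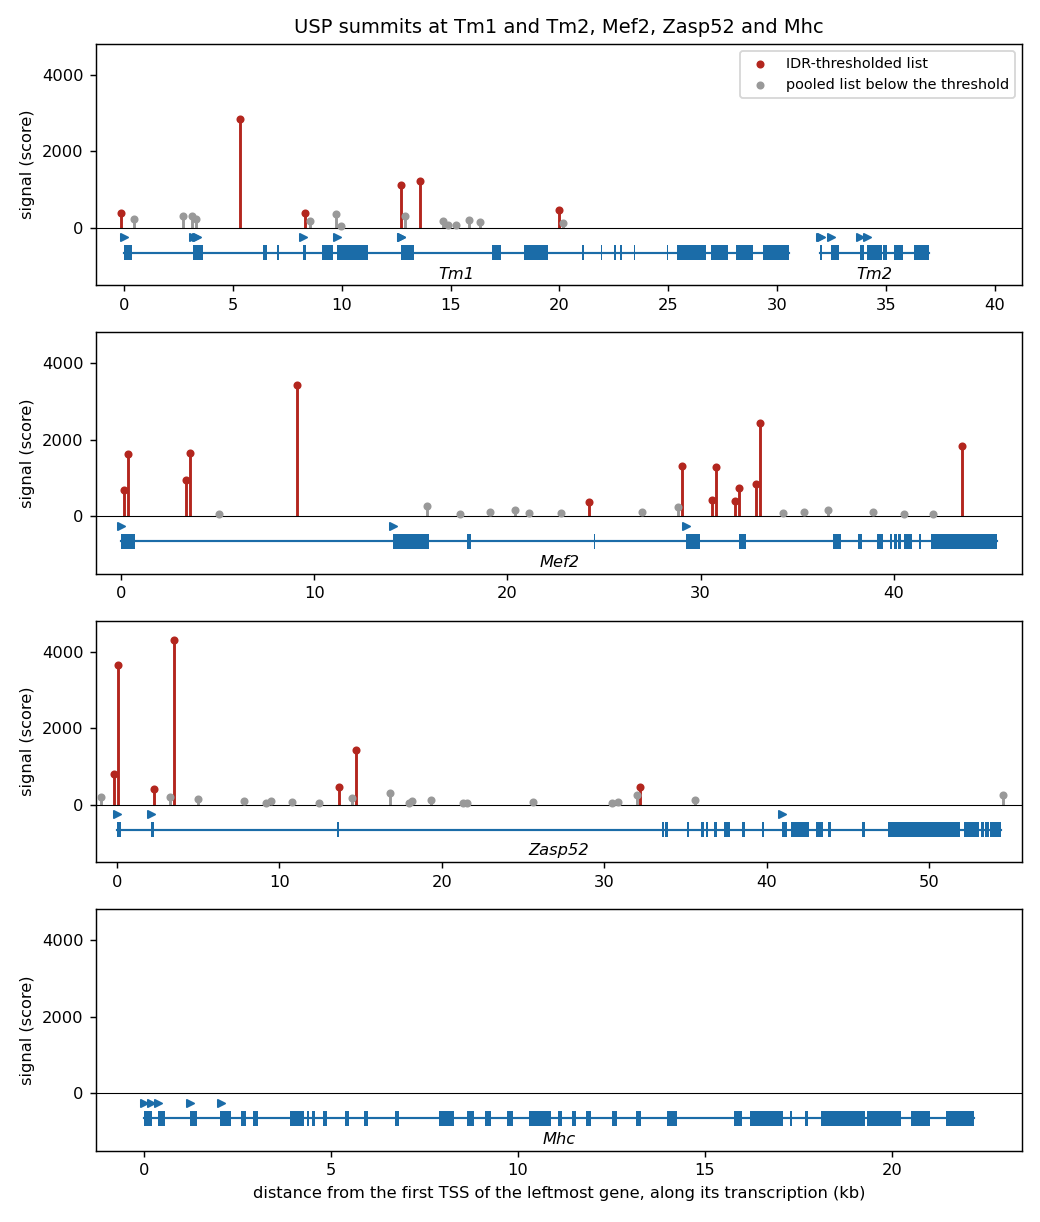
Signal of USP summits (vertical axis, the caller's score) along Tm1 with Tm2, Mef2, Zasp52 and Mhc, against distance in kb from the first TSS along the direction of transcription. Red marks IDR-thresholded summits and grey the pooled summits below the threshold. Boxes are exons and arrowheads TSSs. Tm1 and Tm2 share a panel, and the clusters in Tm1, Mef2 and Zasp52 contrast with Tm2 and Mhc, which hold no summit.

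Of the giant sarcomere proteins, 1 of 4 was bound, against 2.44 of 4 among genes of nearest length. The bound gene was Strn-Mlck (2R:15946933-15989498, minus strand), a titin-like myosin light chain kinase, with 3 summits near its internal start sites and 2, 2 and 3 among the replicates' strongest (2.33 ± 0.577, SD, n = 3). Without replicate 3, counting only summits also found within 100 bp among the strongest peaks of both other replicates, it held 1. The strongest, at 2R:15952125, lay 37 bp from the TSS of Strn-Mlck-RM and Strn-Mlck-RN, with rank 3641. It ranked 4638 in replicate 1 and 3257 in replicate 3. Replicate 2 had no summit within 100 bp of it and placed its own, with rank 3132, at the neighbouring summit 200 bp away. A further summit at 2R:15953208 in the coding sequence had rank 4445 and replicate ranks of 5183, 4729 and 4294. In length, 85 of 200 neighbours held 3 or more summits.

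The titin genes themselves were hardly occupied. The gene sls, which codes for the titin-like protein Sallimus (3L:2039681-2115611, minus strand), is 75.9 kb long and held 1 pooled summit, 317 bp from its TSS, at rank 23181. It ranked 20658 in replicate 1 and 27119 in replicate 3, and replicate 2 had none. Projectin, encoded by bt, lies on chromosome 4 and held none, with the nearest IDR-thresholded summit 63714 bp outside its window. The chromosome 4 genes in the lists set beside the members below also held none. Genes of nearest length were chosen without regard to chromosome. Unc-89, the fly obscurin of the M-line, held none in its window, although a summit lay 426 bp beyond it.

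Msp300 and SERCA were bound and RyR was not, against 1.77 of 3 among genes of nearest length. Msp300, a giant nesprin that holds nuclei and mitochondria in place in muscle, is the longest member (2L:5100877-5207002, plus strand, 106 kb). It held 10 summits, with 9, 7 and 9 among the replicates' strongest (8.33 ± 1.15, SD, n = 3), and 47 of its 200 neighbours held as many. Counted in the same way, it held 5 summits without replicate 1 and 6 without replicate 3. Of the 10, 3 lay within 500 bp of a TSS of Msp300, and the others lay in introns. The strongest, at 2L:5145637 in an intron, had rank 3419 and ranked 2499, 3999 and 4389 in replicates 1, 2 and 3. Next came 2L:5108208, 304 bp from the TSS of Msp300-RD and Msp300-RL, with rank 3552. It ranked 3274 in replicate 1 and 4799 in replicate 3, and replicate 2 had none within 100 bp. The summit at 2L:5108494, 18 bp from that TSS, had rank 4259 and was found in all 3 replicates, at 3925, 4172 and 5468.

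The windows around the leading Msp300 summits are shown because, of all member summits, only these and that of TpnC73F matched the Mef2 consensus. The window at 2L:5108208 also holds the hexamer AGGTCA on the minus strand. Capitals mark the Mef2 consensus in both and, as the first run of capitals in the window at 2L:5108208, the hexamer. Both windows are plus strand, 5′ to 3′ (RefSeq, release 6).
Msp300, 2L:5145537-5145737: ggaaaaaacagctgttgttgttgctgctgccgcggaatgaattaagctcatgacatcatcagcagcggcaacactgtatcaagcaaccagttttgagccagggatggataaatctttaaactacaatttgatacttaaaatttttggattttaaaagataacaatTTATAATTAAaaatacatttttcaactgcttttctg
Msp300, 2L:5108108-5108308: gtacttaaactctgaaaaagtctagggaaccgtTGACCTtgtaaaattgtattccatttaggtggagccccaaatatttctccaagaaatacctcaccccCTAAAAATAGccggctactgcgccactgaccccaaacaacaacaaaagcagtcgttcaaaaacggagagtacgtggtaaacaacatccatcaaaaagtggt

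SERCA, the pump that returns calcium to the sarcoplasmic reticulum, held 2 summits (2R:23925077-23935884, minus strand), with 2, 1 and 2 among the replicates' strongest (1.67 ± 0.577, SD, n = 3). Without replicate 1, and likewise without replicate 3, it held 1. The stronger one, at 2R:23929573, lay in coding sequence with rank 2396 and ranked 2349, 3852 and 2139 in replicates 1, 2 and 3. The other lay 17 bp from the TSS of 5 transcripts with rank 10370, near the threshold, and it ranked 8858, 12015 and 10556 in the replicates. Unlike SERCA, the ryanodine receptor gene RyR, whose channel releases calcium from the same store, held no summit over 27.7 kb. The nearest was 13680 bp away.

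Together the 8 genes held 50 summits. The signal of these summits ran between 370 and 4300.6 with a median of 858, against a median of 746 over all IDR-thresholded summits. Introns held 27 of them (54%), promoters 18 (36%), 3′ UTRs 2, coding sequence 2 and a 5′ UTR 1. Of the 50, 13 lay in the window of another gene too, and 10 had the TSS of another gene as the nearest. A counterpart within 100 bp among the strongest peaks was found in all 3 replicates for 33 summits (66.0%), against 71.2% of all IDR-thresholded summits. It was found in 2 replicates for 13 summits, in 1 for 3 and in none for 1. In the full lists, 43 of the 50 had one in all 3 replicates. For the places, shared windows, nearest TSSs and full lists no share over all IDR-thresholded summits is given. Those counts describe the 50 summits only.

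The summits below the threshold in the other 7 genes were weak. There were 29, with pooled ranks between 12372 and 29143 and signals between 55.7 and 317. Of these, 7 summits in 4 of the genes had a counterpart in the full lists of all 3 replicates. The 4 genes were Mlp60A, Mlp84B, Zasp66 and tn, which are the 4 Z-disc genes among these 7. No such share over all summits below the threshold is given, so the count describes these genes only.

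Sequence motifs near the member summits were about as common as near all summits. Windows of 100 bp to each side were searched on both strands, and matches of a motif may overlap each other. The palindromic ecdysone response element (EcRE IR1 consensus), the site of the EcR and USP pair, was in 0 of 50 member summits and 0.447% of all 11195. The hexamer AGGTCA, 1 arm of that element, was in 3 (6%), against 6.24% of all. These were Mef2 at 2R:9915327 and 2R:9934615 and Msp300 at 2L:5108208. The Mef2 consensus was in 3 (6%), against 5.45% of all, with its centre 40 bp from the summit in TpnC73F and 4 and 69 bp from those in Msp300. The E-box CANNTG, the kind of site bound by Twist and Nautilus, was in 35 (70%), against 65.5%. The sequence GAGAG, part of the site of GAGA factor, was in 22 (44%), against 34.5%. With 50 summits in 8 genes, several of them within 200 bp of each other, the shares are descriptions of these windows.

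Other genes of muscle and of the cytoskeleton were set beside the members, each list with its own genes of nearest length. Among other sarcomere genes, 12 of 13 were bound (92.3%), against 58.2% of genes of nearest length. They were led by Mhcl, a myosin relative, with a best rank of 402, Lmpt, a LIM-domain gene, with 547, the formin gene DAAM with 791 and the nebulin-repeat gene Lasp with 906. CG1674, which lies on chromosome 4, was the 1 without a summit. The list is not limited to genes particular to the sarcomere, and tsr is also counted in the non-muscle cytoskeleton. Its share was above that of its genes of nearest length, where that of the members was under it. No test of that difference was made.

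Metabolic and chaperone genes used by muscle were mostly bound. Of 14 genes of energy metabolism, 13 were bound (92.9%), against 45.3% of genes of nearest length, led by Gapdh2 with a best rank of 253, Pgk with 691, Eno with 826 and Glyp with 913. Gapdh1 was not bound. Of 6 chaperone genes, 5 were bound (83.3%), against 40.8%, led by unc-45, the myosin chaperone, with 1340. Of 25 genes of the non-muscle cytoskeleton, 22 were bound (88.0%), against 52.1%, led by zip with rank 91, chic with 107, Act5C with 151 and sqh with 280.

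The remaining muscle lists lay lower. Attachment genes were bound in 15 of 20 cases (75.0%, against 54.8%), led by rhea, the talin gene, with rank 909. Fusion genes were bound in 12 of 17 (70.6%, against 51.2%), led by kirre, a founder-cell adhesion protein, with 411. RNA processing genes were bound in 3 of 4 (75.0%, against 62.4%), led by how with 354. The dystrophin complex had 4 of 7 (57.1%, against 52.2%), led by Dg with 1105, and 4, 3 and 4 of 7 in replicates 1, 2 and 3. Genes of excitation and calcium had 7 of 15 (46.7%, against 57.2%), led by Orai with 1929, while Ca-alpha1D, Ca-alpha1T and Stim held none. Genes of the muscle side of the neuromuscular junction had 3 of 10 (30.0%, against 49.7%), led by wit with 3354. In replicates 1, 2 and 3 the count was lower, with 2, 2 and 2 of 10. GluRIIA, GluRIIB and GluRIIC held none. Regulators of muscle identity had 7 of 21 (33.3%, against 56.3%), led by twi with 1732, and ap, lms and slou held none. Of the 12 lists, then, the share was under that of genes of nearest length in the muscle members, identity regulators, junction genes and excitation genes. It was above in the others. The difference was small for the dystrophin complex (4 against 3.65 of 7), RNA processing (3 against 2.5 of 4) and excitation (7 against 8.59 of 15), so their side is not a result.

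**Figure D4:**
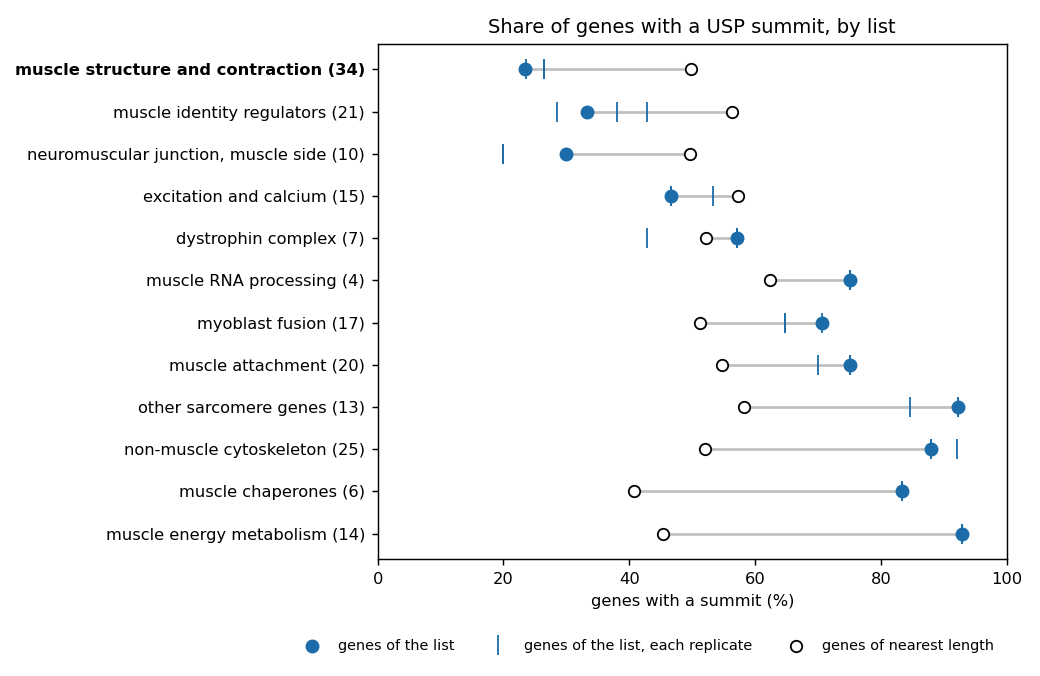
Percent of genes with an IDR-thresholded USP summit in each list (filled points; ticks give each replicate's strongest peaks) and in the genes of nearest length (open points), with the number of genes in parentheses. The 34 muscle structure and contraction genes are at the top at 23.5% against 49.8%, and energy metabolism is at the foot at 92.9% against 45.3%.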

How the data were processed

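USP-eGFP ChIP-seq of 3 biological replicates was used as deposited. Chromatin was sonicated to 200 to 800 bp, per the labels. Per the file headers, the authors called peaks on alignments to dm6 with a control alignment, per replicate and on pooled replicates 2 and 3. Aligner, caller and threshold settings are not given in the sources consulted. The deposited signal is the caller's score and ranked peaks within a list only. The authors also deposited a −log10 q-value per peak, which had 1 common maximum in the IDR-thresholded list and was left out. The lists show no read depth, so no counting interval is given.

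Summits were placed on Ensembl release 115 (BDGP6.54) gene models, and sequence came from the RefSeq release 6 genome. All peaks lay inside the chromosome arms, and 30540 of 30593 start codons (99.8%) read ATG. A gene's window was its body plus 1000 bp upstream, and a promoter was within 500 bp of a TSS. For each member, the 200 protein-coding non-members nearest in length gave the comparison, without a random draw. Summits within 100 bp counted as the same site. Between 1.34% and 1.86% of summits lay at the same base in a pair of replicates. Counting was tested on simulated data. Python 3.11.15, numpy 2.4.6, pandas 2.3.3 and matplotlib 3.10.9 were used.

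The members and lists were chosen with earlier results of these data known, so no p-value is given. Values are given for every member with a summit, though not for each of its summits. Of each other list the text names at most 4 bound genes of best rank and at most 3 unbound ones in list order. Arf51F, olf186-F, Stac, Pyk and GlyP are listed as Arf6, Orai, stac, PyK and Glyp. Of the list entries, Alp and Jp could not be matched and were left out, and CryAB and l(2)efl are 1 gene. The bound gene tsr is counted both among the other sarcomere genes and in the non-muscle cytoskeleton.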

Additional observations from a re-analysis of the deposited data

How the results depend on the processing

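Of 15 other settings, none lost any of the 8 bound members. The count was 8 to 9 in all but 2 of them: with each summit given to the nearest TSS alone it was 11 (Act57B, Act79B and Act88F added), and with the full pooled list 15. The share of genes of nearest length, 49.8%, was 58.6% with the number of TSSs also matched, 41.0% with no upstream window, 47.4% with 500 bp and 58.8% with 5000 bp. It was 37.1% for summits within 500 bp of a TSS, 43.3% by nearest TSS, 51.4% for any overlap of the peak interval, 33.9% for summits in no other gene's window, 35.5% for the 5597 strongest peaks, 61.3% for the full pooled list and 48.4% for replicate 2's list. Without each replicate it was 43.7% to 46.0%. There, only IDR-thresholded summits also found within 100 bp among the strongest peaks of both other replicates were counted. The IDR-thresholded list itself, derived from replicates 2 and 3 per the file headers, was not made anew. In each of these settings the muscle genes' share was under that of genes of nearest length, but it was above that of all protein-coding genes with no upstream window (23.5% against 23.2%), the 5597 strongest peaks (21.9%), summits in no other gene's window (17.9%) and, at 32.4% against 30.2%, by nearest TSS. Of the 7 genes bound below the threshold only, 4 had a summit in all 3 full lists. Of the 50 summits, 23 were found in all 3 replicates within 50 bp and 41 within 200 bp. Of the other lists, some counts fell by over 1.5 times. With summits within 500 bp of a TSS it was 4, against 7, for identity regulators and for excitation genes, and 1, against 3, for RNA processing. With the 5597 strongest peaks it was 2, against 4, for the dystrophin complex and 1, against 3, for the junction, and with summits in no other gene's window it was 3, against 5, for chaperones. No paired analysis was possible because there was 1 group. The depth of the libraries is unknown, so a gene with no summit among 30000 peaks may still hold weaker binding.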

Other observations

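For 4 contractile proteins the fly has both muscle and non-muscle genes, and the binding differed between them. The pairs were drawn up after the values had been seen, their genes were not matched in length, and no test was made. Of the 200 genes nearest in length, 31.5% to 35.5% were bound for the muscle actins. The share was 63.0% for Mhc, 37.0% for Mlc1 and 37.5% for Mlc2, so a short gene without a summit was common. The muscle actins Act57B, Act79B, Act87E and Act88F held no summit, against 6 in Act5C, best rank 151, and 1 in Act42A, best rank 8852, the cytoplasmic actins. Mhc held none, against 9 in zip, the non-muscle myosin heavy chain, whose best summit ranked 100, 91 and 94 in replicates 1, 2 and 3. Mlc1 held none, against 3 in Mlc-c, best rank 2329, the essential light chain of non-muscle myosin. Mlc2 held none, against 3 in sqh, best rank 280, its regulatory light chain.

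Among the EF-hand calcium sensors, TpnC73F held 3 summits, best rank 4358, and the other 4 troponin C genes none. Cam, the calmodulin gene, held 4 summits, best rank 2890, but is longer than each of the troponin C genes. Among genes of nearest length to the troponin C genes, 1.86 of 5 were bound.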
